A study of Mus musculus with 9 samples.

Results

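The 5 genes described here encode the R-spondin receptors Lgr4, Lgr5 and Lgr6 and the Wnt receptor ubiquitin ligases Rnf43 and Znrf3. They were chosen by name and found by matching the Ensembl identifiers of the deposited table to GENCODE M21 symbols, which gave 5 of 5 genes among the 48795 in the table. Of these, 4 had a mean of 10 or more normalised counts over the libraries and were tested with 12741 genes in all. Lgr6 was below that level and is given by its values and by a fit with no filter on low values. RNA was sequenced from 9 libraries of mouse colon organoids, epithelial cultures grown in Matrigel from colon crypts. Per the methods of the study, the mice were on a C57BL/6 background, and the AHR KO organoids came from animals in which a Cre driven by the Villin promoter deletes a floxed Ahr allele (Ahr fl/fl) in the gut epithelium, with wild-type (WT) littermates as controls. The aryl hydrocarbon receptor (AHR) is a transcription factor that is activated by ligands such as FICZ. The groups were WT organoids given the solvent DMSO (n = 2, numbered 2 and 3), WT organoids given 5 nM FICZ for 4 h (n = 3, numbered 1, 2 and 3), AHR KO organoids given DMSO for 4 h (n = 2, numbered 1 and 3) and AHR KO organoids given 5 nM FICZ for 4 h (n = 2, numbered 1 and 3). All groups grew in WENR, a medium that supplies Wnt3a, EGF, Noggin and R-spondin1, so every library came from cells that received the ligands of these receptors from outside. The labels do not say whether replicates came from separate animals, while the methods describe organoids from mice as biological replicates, with n = 3 for RNA sequencing. Only the WT FICZ group has 3 libraries here. The p-values then measure the spread between these libraries, which may in part be technical.

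Wnt ligands act through Frizzled receptors and the co-receptors Lrp5 and Lrp6, and their signal lets beta-catenin enter the nucleus and switch on genes together with TCF factors. RNF43 and ZNRF3 are membrane ubiquitin ligases that tag Frizzled receptors for removal from the cell surface and so dampen the Wnt signal. R-spondins bind LGR4, LGR5 or LGR6 together with RNF43 or ZNRF3 and take the ligases off the membrane, which leaves more Frizzled at the surface. In the intestine Lgr5 is the best known marker of the stem cells at the crypt base, Lgr4 is expressed more widely along the crypt, and Lgr5, Rnf43 and Znrf3 are themselves Wnt target genes.

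The check of the labels came from AHR and its targets. The level of Ahr did not fall in the libraries labelled AHR KO, where it lay between 1346 and 1443 normalised counts against 782.7 to 858.0 in the WT libraries. A gene-level value does not show whether the floxed exon was present. Cyp1a1, the xenobiotic-metabolising enzyme that is the classical AHR target, was at 6987 to 7958 normalised counts in WT FICZ, at 100.3 and 138.8 in AHR KO FICZ and at 5.84 or less in all DMSO libraries. Cyp1b1, another AHR target enzyme, was at 8898 to 10600 in WT FICZ, 1078 and 1632 in WT DMSO, 136.6 and 222.0 in AHR KO FICZ and 25.4 and 34.5 in AHR KO DMSO. Cyp1a1 and Cyp1b1 were called higher with FICZ also in the libraries labelled AHR KO (limma adjusted p = 0.00209 and 0.00112). Library totals were 23177058 to 25033827 normalised counts, and the estimated depth was 21.7 to 30.2 M reads. The 11 epithelial and colon markers were present in all libraries. Of 10 fibroblast markers 8 never rose above 5 normalised counts and Lum was at 0 throughout, of 10 immune markers 8 never rose above 5 and Ptprc, Lyz2 and Adgre1 were at 0 throughout, and of 6 endothelial and neural markers 4 never rose above 5. The macrophage markers Cd68 and Csf1r were at 475.3 to 712.0 and 5.86 to 17.4 in all libraries, and the neural marker Elavl4 was at 57.0 to 85.8 in WT and 11.3 to 40.6 in AHR KO. Mmp7, a Paneth cell protease, was at 1337 to 1675 in the AHR KO libraries and 299.3 to 402.0 in the WT libraries, with Lyz1, Defa17 and Defa24 at 0 in all. The part of these markers in the differences between genotypes was not tested.

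The genes lie at separate places in the genome (GRCm38, GENCODE M21). Lgr4 (ENSMUSG00000050199) is at chr2:109917647-110014257 on the plus strand, Lgr5 (ENSMUSG00000020140) at chr10:115450311-115587780 on the minus strand and Lgr6 (ENSMUSG00000042793) at chr1:134983301-135105276 on the minus strand. Rnf43 (ENSMUSG00000034177) is at chr11:87662722-87735539 on the plus strand, and Znrf3 (ENSMUSG00000041961) is on the same chromosome at chr11:5276324-5444847 on the minus strand. The RefSeq promoter table (GRCm38.p6) had entries for Lgr4, Lgr6 and Rnf43, with 2 start sites for Rnf43. The 250 bases before the start are shown for Lgr4, the receptor whose window holds more matches than the other windows, and for the first start of Rnf43, the ligase called with FICZ in both genotypes. Capitals mark matches, on either strand, to GCGTG, the core bound by AHR with its partner ARNT, and to GGAATG, the core bound by TEAD factors; the TCF/LEF core was searched as CTTTGA or CTTTGT.
Lgr4, chr2:109917397-109917646, plus strand: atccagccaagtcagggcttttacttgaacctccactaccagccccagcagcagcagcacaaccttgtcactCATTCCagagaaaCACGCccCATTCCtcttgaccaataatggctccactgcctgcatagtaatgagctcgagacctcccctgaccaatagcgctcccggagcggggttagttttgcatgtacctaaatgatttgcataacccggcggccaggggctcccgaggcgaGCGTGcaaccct
Rnf43, chr11:87662837-87663086, plus strand: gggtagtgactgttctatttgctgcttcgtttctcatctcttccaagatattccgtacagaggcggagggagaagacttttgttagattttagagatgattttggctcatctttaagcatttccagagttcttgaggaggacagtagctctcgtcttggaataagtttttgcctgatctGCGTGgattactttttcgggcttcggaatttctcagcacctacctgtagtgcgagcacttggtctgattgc
The Lgr4 window held 2 GCGTG and 2 GGAATG matches, of which none overlapped. The Rnf43 window held 1 GCGTG match that began 71 bases before the start, and part of it lies in an exon of a longer Rnf43 transcript in GENCODE. The window of the other Rnf43 start held no match, and the Lgr6 window held 1 GCGTG match. No CTTTGA or CTTTGT was found in any of these windows. Among 32851 promoter windows of the same length, 28.2% held GCGTG, 27.6% held CTTTGA or CTTTGT and 12.6% held GGAATG. A match is a string of letters and no evidence of binding.

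Relative to gene length, Rnf43 and Lgr4 stood far above the rest. Per kilobase of merged exons, the mean level over the 9 libraries was 533 normalised counts for Rnf43 (474 to 592), 529 for Lgr4 (473 to 577), 105 for Lgr5 (47.8 to 154), 77.9 for Znrf3 (65.7 to 97.3) and 1.22 for Lgr6 (0.182 to 7.55). The ranges of Rnf43 and Lgr4 overlapped, as did those of Lgr5 and Znrf3, so neither pair had a fixed order over all libraries. In WT DMSO and in both AHR KO groups Lgr5 was above Znrf3 in each library, at 117 to 154 per kilobase against 71.3 to 97.3. In WT FICZ the order turned, with Lgr5 at 47.8 to 53.3 per kilobase and Znrf3 at 65.7 to 74.6. This turn depended on the length used. Per kilobase of the longest annotated transcript, Lgr5 stayed above Znrf3 in WT FICZ, at 102 to 114 against 82.2 to 93.3, and Rnf43 at 812 over all libraries was above Lgr4 at 616.

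**Figure D1:**
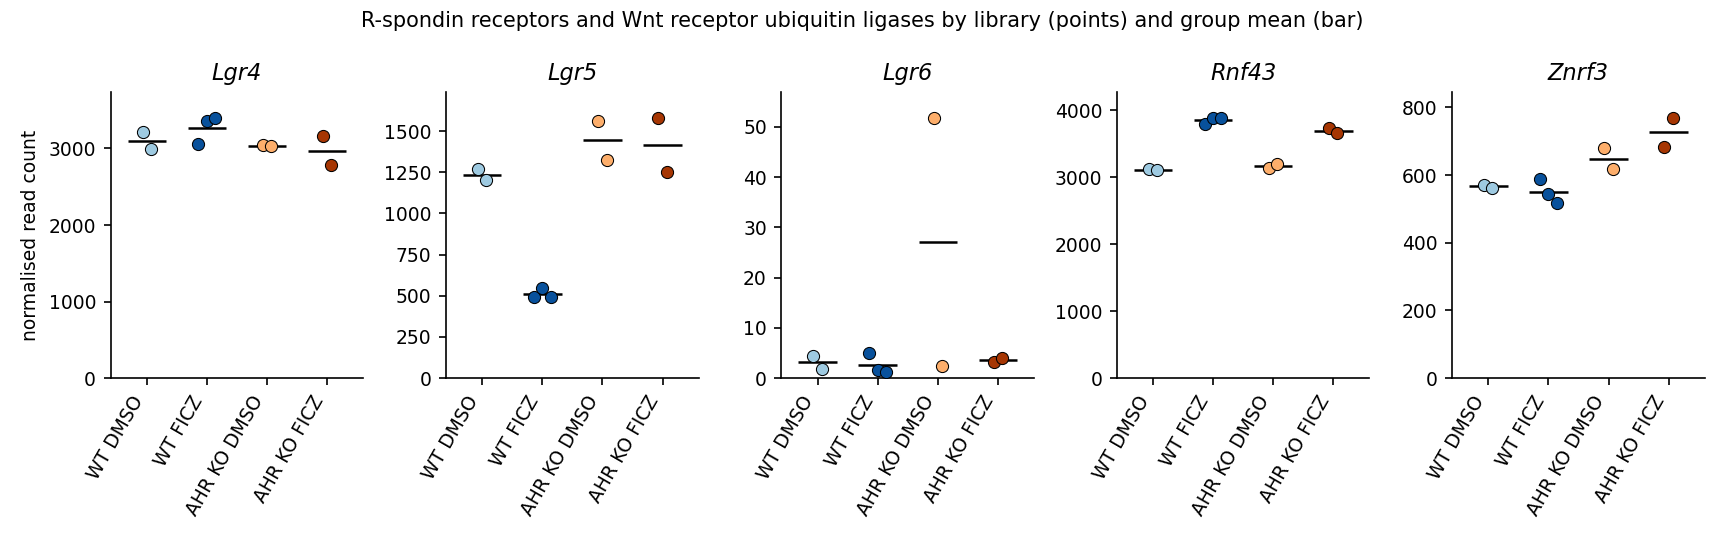
Normalised read counts (vertical axes, each from 0 with its own scale) of Lgr4, Lgr5, Lgr6, Rnf43 and Znrf3 in the 4 groups of genotype and treatment, with 1 point a library and a bar at the group mean. The 3 WT FICZ libraries are the lowest of all for Lgr5, the FICZ libraries of both genotypes are the highest for Rnf43, and 1 AHR KO DMSO library stands alone for Lgr6.

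Among the receptors, Lgr5 fell with FICZ in WT organoids to less than any library of the other groups, and Lgr4 had no call in any comparison. In the WT DMSO libraries 2 and 3 the level of Lgr5 was 1271 and 1200 normalised counts, and in the WT FICZ libraries 1, 2 and 3 it was 490.5, 547.1 and 492.4. In AHR KO, libraries 1 and 3 held 1561 and 1327 with DMSO and 1579 and 1253 with FICZ. The highest WT FICZ library was thus below the lowest of the other 6 libraries, while those 6 overlapped or adjoined each other across their groups. Over all genes tested, 28.9% had each WT FICZ library below each WT DMSO library. The share with WT FICZ below all other groups was not counted. As a share of the DMSO mean of the same genotype, the WT FICZ libraries held 39.7, 44.3 and 39.8% of the Lgr5 level, and the AHR KO FICZ libraries 109 and 86.8%. In AHR KO the FICZ pair spread around its DMSO pair, and replicate 1 was above replicate 3 under both treatments.

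Between FICZ and DMSO in WT the log2 difference of Lgr5 was -1.28 (95% limits -1.52 to -1.04), 0.413 of the DMSO level on the log2(value + 1) scale, with a limma adjusted p of 1.05e-04. In this comparison 30.8% of all genes tested were called at an adjusted p under 0.05 and Lgr5 was 1 of 2 called among the 4 genes tested here. Ordered by log2 difference, Lgr5 was number 65 from the lowest of 12741 genes. In AHR KO, where 19.7% of genes were called, the log2 difference of Lgr5 was -0.03 (95% limits -0.29 to 0.23, limma adjusted p = 0.872), which leaves out a fall of the size seen in WT. The interaction, the FICZ difference in WT minus that in AHR KO, was called for only 0.447% of genes and was -1.24 for Lgr5 (95% limits -1.60 to -0.89, limma adjusted p = 0.00784). Without AHR KO DMSO replicate 3 the interaction of Lgr5 was -1.13 with an adjusted p of 0.0611. Because the libraries are bulk samples, fewer Lgr5-expressing cells and less Lgr5 RNA per cell cannot be told apart.

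The genotypes were compared under each treatment, with the same libraries as above. Under DMSO, where 9.05% of genes were called, Lgr5 differed between AHR KO and WT by 0.22 on the log2 scale (95% limits -0.04 to 0.48, limma adjusted p = 0.290), with both AHR KO libraries above both WT libraries, as was so for 26.6% of all genes tested. Under FICZ, where 20% of genes were called, Lgr5 was 2.76-fold higher in AHR KO (log2 difference 1.46, 95% limits 1.23 to 1.70, limma adjusted p = 1.50e-05). The summed fibroblast markers moved with treatment and genotype as well, from 976.1 and 993.3 in WT DMSO to between 1270 and 1315 in WT FICZ, with 422.6 and 494.6 in AHR KO DMSO and 523.5 and 757.0 in AHR KO FICZ. Nearly all of that sum came from Fbln1 and Pdgfrb, while the collagens Col1a1, Col1a2 and Col3a1 stayed at or under 4.34 in each library. Their part in the values of Lgr5 was not tested.

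Lgr4, the receptor found along the whole crypt, was at 3219 and 2988 normalised counts in WT DMSO and at 3058, 3354 and 3397 in WT FICZ. It was at 3040 and 3035 in AHR KO DMSO and at 3163 and 2781 in AHR KO FICZ. The groups overlapped, and the highest of the 9 values was 1 of the WT FICZ libraries and the lowest an AHR KO FICZ library. The log2 difference between FICZ and DMSO was 0.07 in WT (95% limits -0.08 to 0.23, limma adjusted p = 0.454) and -0.03 in AHR KO (limma adjusted p = 0.791), and the interaction was 0.11 (limma adjusted p = 0.897). Between the genotypes it was -0.03 with DMSO (limma adjusted p = 0.855) and -0.14 with FICZ (95% limits -0.29 to 0.02, limma adjusted p = 0.195). The ratio of Lgr4 to Lgr5 counts within a library was 2.49 and 2.53 in WT DMSO, 6.13 to 6.90 in WT FICZ, 1.95 and 2.29 in AHR KO DMSO and 2.00 and 2.22 in AHR KO FICZ. These ratios follow from the values above and are given as a description.

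Lgr6, which marks stem cells in skin appendages, was close to the detection limit. It was at 4.49 and 1.76 normalised counts in WT DMSO, at 5.06, 1.58 and 1.25 in WT FICZ and at 3.13 and 4.03 in AHR KO FICZ. In AHR KO DMSO it was at 51.7 in replicate 1 and 2.44 in replicate 3. A single library therefore held most of the Lgr6 signal, and the other 8 lay at or near the level of 3 counts, which corresponded to 2.40 to 3.30 on the normalised scale. In a fit with no filter on low values, which included Lgr6, none of its differences was called (limma adjusted p between 0.494 for FICZ in AHR KO and 0.967 for FICZ in WT).

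The ligands of these receptors were nearly absent from the cells' own RNA. Rspo1, Rspo3 and Rspo4 were listed at 0 in all 9 libraries. Rspo2 was at 1.03 in WT FICZ replicate 2 and 1.08 in AHR KO FICZ replicate 3 and at 0 elsewhere. With 1 read worth 0.8 to 1.1 normalised counts, those values amount to about 1 read, and a count of 0 allows up to 2.40 to 3.30 normalised counts depending on the library.

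Of the ligases, Rnf43 rose with FICZ in both genotypes in the fit as planned, by about the median rise of genes with a like GC content in AHR KO and somewhat more in WT, and Znrf3 was called in neither. Rnf43 was at 3115 and 3108 normalised counts in WT DMSO and at 3794, 3881 and 3877 in WT FICZ. It was at 3130 and 3195 in AHR KO DMSO and at 3728 and 3652 in AHR KO FICZ. Each of the 5 FICZ libraries was above each of the 4 DMSO libraries, with 122 to 125% of the DMSO mean in WT and 115 and 118% in AHR KO. Of all genes tested, 27.5% in WT and 31% in AHR KO had each FICZ library above each DMSO library of that genotype. The share separated over both genotypes at once was not counted. Within each group the libraries lay closer together than the step between the treatments.

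The log2 difference of Rnf43 between FICZ and DMSO was 0.31 in WT (95% limits 0.21 to 0.41, 1.24-fold, limma adjusted p = 9.37e-04) and 0.22 in AHR KO (95% limits 0.12 to 0.33, 1.17-fold, limma adjusted p = 0.0122). The interaction was 0.09 (95% limits -0.06 to 0.23, limma adjusted p = 0.870), so a difference between the genotypes in this rise was not shown. AHR KO and WT differed by 0.02 with DMSO (limma adjusted p = 0.817) and by -0.06 with FICZ (limma adjusted p = 0.366). The GC content of the Rnf43 transcript was 56.1%, against a median of 49.4% over the genes tested, and the 1134 genes within 1 percentage point of it had a median FICZ difference of 0.18 in WT and 0.21 in AHR KO. Once the trend with GC content and length had been taken out of each library, the differences of Rnf43 were 0.12 (limma adjusted p = 0.109) in WT and 0.01 (limma adjusted p = 0.945) in AHR KO. The call in AHR KO was also lost without AHR KO DMSO replicate 1 (0.21, adjusted p = 0.103) and without AHR KO FICZ replicate 1 (0.21, adjusted p = 0.0512). For Lgr5, whose transcript has a GC content of 44.7%, the 1238 genes of like GC content had a median of -0.13 in WT, and the difference of Lgr5 remained called under each of the 22 alternatives (-1.33 to -1.13).

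Znrf3 differed between the genotypes under FICZ. It was at 571.4 and 562.8 normalised counts in WT DMSO and at 588.6, 544.9 and 518.5 in WT FICZ. It was at 679.8 and 616.8 in AHR KO DMSO and at 683.5 and 768.3 in AHR KO FICZ. All 4 AHR KO libraries were above all 5 WT libraries, and within each genotype the treatments overlapped or adjoined each other. Taken 1 treatment at a time, 26.6% of all genes tested had each AHR KO library above each WT library with DMSO and 22.9% with FICZ. The share separated over both treatments at once was not counted. The log2 difference between AHR KO and WT was 0.40 under FICZ (95% limits 0.21 to 0.59, 1.32-fold, limma adjusted p = 0.00946) and 0.19 under DMSO (95% limits -0.02 to 0.40, limma adjusted p = 0.255). Without AHR KO FICZ replicate 3 the difference under FICZ was 0.31 with an adjusted p of 0.0984. Between FICZ and DMSO, Znrf3 differed by -0.04 in WT (95% limits -0.24 to 0.15, limma adjusted p = 0.739) and by 0.16 in AHR KO (95% limits -0.05 to 0.37, limma adjusted p = 0.258). The interaction was -0.21 (95% limits -0.49 to 0.08, limma adjusted p = 0.811).

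**Figure D2:**
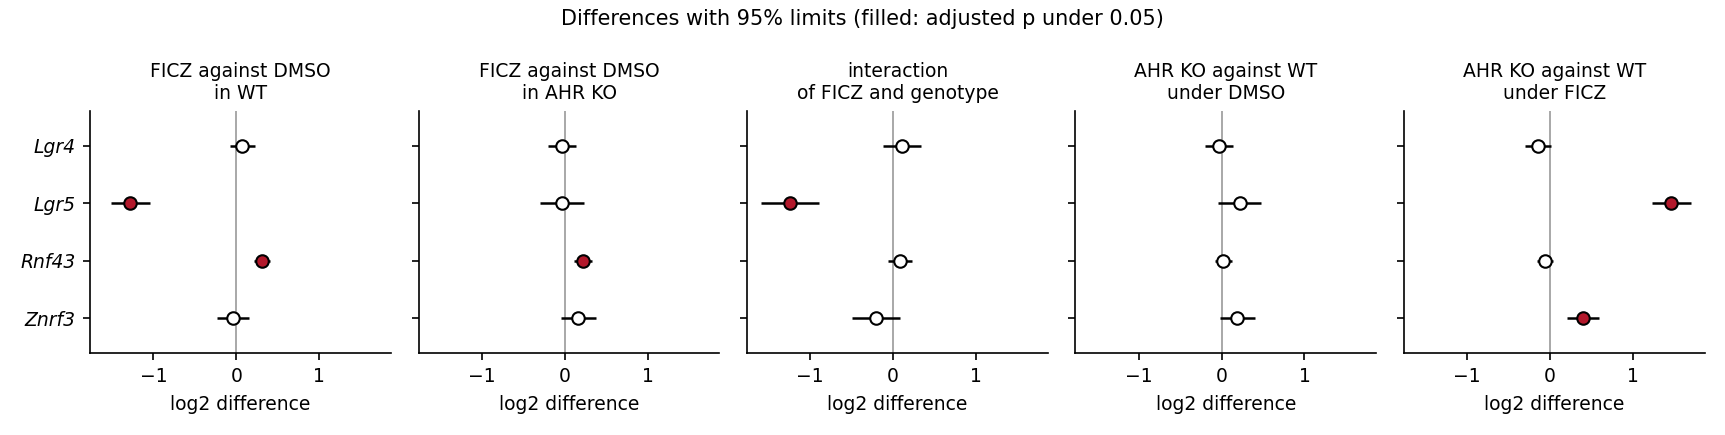
Log2 differences (horizontal axes) of Lgr4, Lgr5, Rnf43 and Znrf3 in the 5 comparisons, with points at the estimate, lines for the 95% limits of the limma fit and filled points for an adjusted p under 0.05. Lgr5 is called in WT (-1.28), in the interaction (-1.24) and between genotypes under FICZ (1.46), Rnf43 with FICZ in both genotypes (0.31 and 0.22) and Znrf3 between genotypes under FICZ (0.40).

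Within a library, the ratio of Rnf43 to Lgr5 set the WT FICZ libraries apart, whereas that of Rnf43 to Lgr4 did not. The ratio of Rnf43 to Lgr5 counts was 2.45 and 2.59 in WT DMSO and 7.09 to 7.87 in WT FICZ. It was 2.01 and 2.41 in AHR KO DMSO and 2.36 and 2.92 in AHR KO FICZ, so that the WT FICZ libraries did not overlap the others. The ratio of Rnf43 to Lgr4 was 0.968 and 1.04 in WT DMSO, 1.14 to 1.24 in WT FICZ, 1.03 and 1.05 in AHR KO DMSO and 1.18 and 1.31 in AHR KO FICZ. The ratio of the ligases to each other, Rnf43 to Znrf3, was 5.45 and 5.52 in WT DMSO, 6.45 to 7.48 in WT FICZ, 4.6 and 5.18 in AHR KO DMSO and 4.75 and 5.46 in AHR KO FICZ. The ratios combine values already tested one by one and were not tested again.

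**Figure D3:**
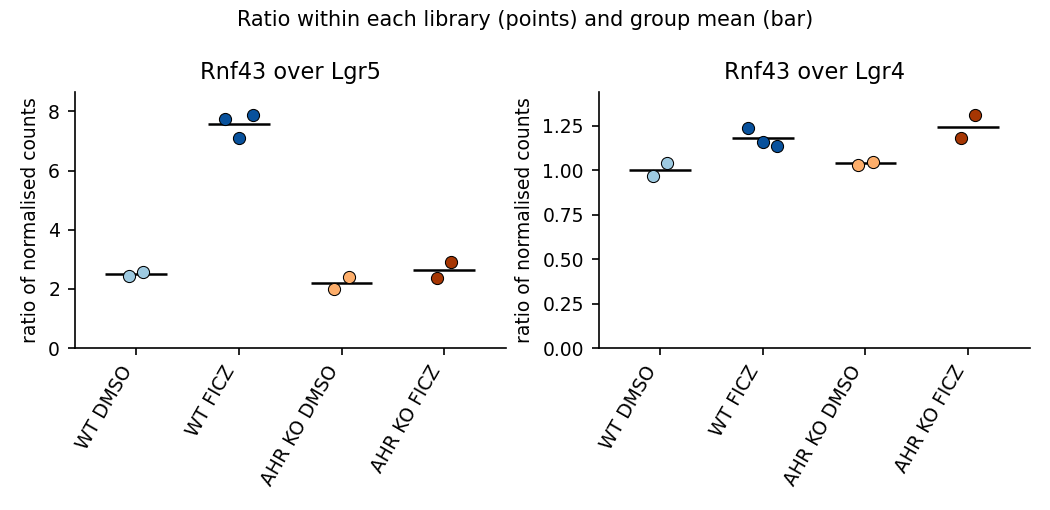
Ratio of normalised counts of Rnf43 to Lgr5 (left) and Rnf43 to Lgr4 (right) within each library (vertical axes from 0), with 1 point a library and a bar at the group mean. The WT FICZ libraries lie between 7.09 and 7.87 for Rnf43 over Lgr5 and all other libraries at or under 2.92.

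**Figure D4:**
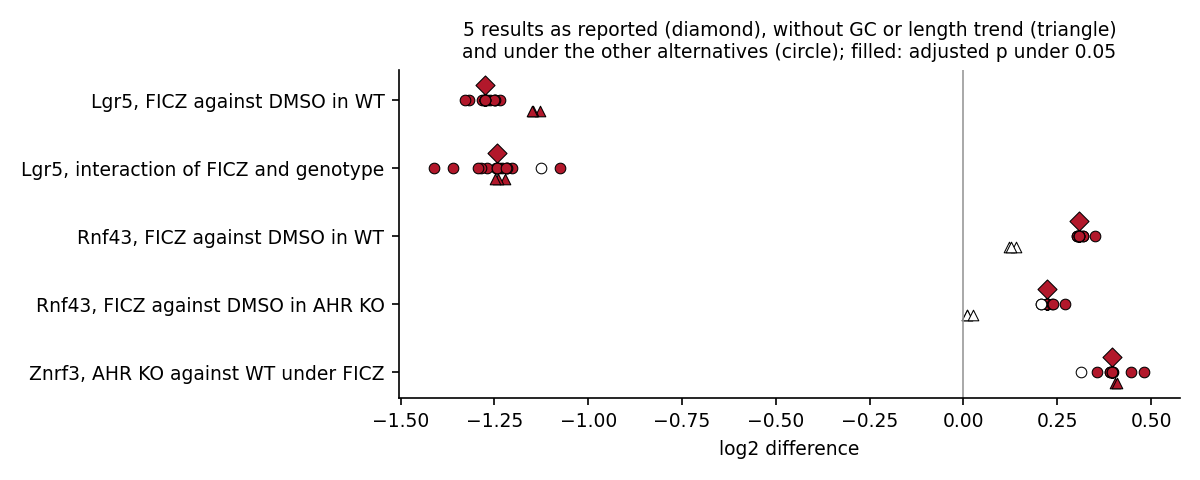
Log2 differences (horizontal axis) of 5 results of Lgr5, Rnf43 and Znrf3 as reported (diamonds), with the trend with GC content, or with GC content and length, taken out (triangles) and under the other alternatives (circles), filled where the adjusted p was under 0.05. The triangles of Lgr5 stay filled, whereas those of Rnf43 lie between 0.01 and 0.14 and are open.

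The other genes of the pathway were taken from lists of 95 genes without the 5 described above, of which 59 were tested. With FICZ in WT, 16 of the 59 were called higher and 5 lower, which is 35.6% against 30.8% of all genes, with a median log2 difference of 0.13 against -0.01 over all genes. In AHR KO 11 were called higher and 2 lower (22.0% against 19.7%, median 0.10). Without the trend with GC content and length 7 of the 21 calls in WT were kept (Tcf7l2, Btrc and Dvl3 higher, and Sox9, Axin1, Myc and Lrig1 lower), with 4 genes called higher and 7 lower in all. In AHR KO the lower Axin1 was then the 1 gene called, so that none of the rises with FICZ in AHR KO given below was kept. Without WT DMSO replicate 3 the calls with FICZ in WT numbered 11, and those in AHR KO numbered 0 and 4 without AHR KO DMSO replicates 1 and 3 and 7 and 4 without AHR KO FICZ replicates 1 and 3. Between AHR KO and WT 9 were higher and 6 lower under DMSO (25.4% against 9.05%), and 17 were higher and 8 lower under FICZ (42.4% against 20%). The 15 calls with DMSO became 6 without either WT DMSO library, 7 without AHR KO DMSO replicate 1 and 5 without AHR KO DMSO replicate 3, and the 25 with FICZ became 15 without AHR KO FICZ replicate 3. The interaction was called for 2 of the 59 (3.39% against 0.447% of all genes), Sox9 and Lrig1, both with the lower FICZ difference in WT. Neither was called without WT DMSO replicate 2, AHR KO DMSO replicate 1, AHR KO DMSO replicate 3 or AHR KO FICZ replicate 3, and Lrig1 was lost in 8 of the 9 fits that left out 1 library. It was also lost with the replicate block as a fixed term (adjusted p = 0.162), with no filter on low values (0.0878) and without the trend with GC content and length (0.0572).

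Of the 12 Frizzled and LRP receptors, the proteins that the ligases act on or beside, all were tested and 3 rose with FICZ in WT with none falling, beside 15.1% of all genes that rose and 15.7% that fell. Without the trend with GC content and length none of the 3 was called. These were Fzd8 (log2 difference 0.47, limma adjusted p = 0.0246), Fzd5 (0.27, adjusted p = 0.0047), a main Frizzled of the gut epithelium, and the co-receptor Lrp5 (0.23, adjusted p = 0.0174). In AHR KO Lrp5 (0.34), Fzd1 (0.29) and Fzd5 (0.24) rose, with adjusted p of 0.00827, 0.0278 and 0.0173. In AHR KO against WT, Fzd1 was lower under DMSO (-0.52, adjusted p = 0.00247) and under FICZ (-0.27, adjusted p = 0.0201), and Fzd6 was higher (0.45 and 0.55, adjusted p = 0.0366 and 0.00454). Fzd7 (0.57) and Lrp5 (0.23) were called higher with FICZ and not with DMSO, and the interaction was called for neither.

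Of the 21 genes for Wnt ligands and their secretion 5 were tested, and the ligands Wnt7b and Wnt10a were higher in AHR KO. Wnt10a was at 42.8 and 21.7 normalised counts in WT DMSO, 195.0 and 215.5 in AHR KO DMSO, 50.5 to 74.0 in WT FICZ and 251.7 and 365.8 in AHR KO FICZ. Each AHR KO library was above each WT library. Taken 1 treatment at a time, 26.6% of all genes tested had this separation with DMSO and 22.9% with FICZ. The share with it over both treatments at once was not counted. The log2 difference between the genotypes was 2.71 under DMSO (adjusted p = 7.83e-04) and 2.37 under FICZ (adjusted p = 2.99e-04). For Wnt7b it was 1.58 (adjusted p = 1.63e-04) and 1.49 (adjusted p = 3.72e-05). Wls was called higher in AHR KO under FICZ (0.21, adjusted p = 0.0235). With FICZ in WT, Wnt10a (0.90, adjusted p = 0.0385) and Wnt7b (0.63, adjusted p = 0.00494) rose and Wls, the carrier that takes Wnts to the cell surface, fell (-0.27, adjusted p = 0.00557). None of these calls in WT was kept without the trend with GC content and length. In AHR KO Wnt7b rose as well (0.54, adjusted p = 0.0246).

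Of 13 secreted inhibitors and Kremens 4 were tested. Notum, an enzyme that inactivates Wnts and a Wnt target itself, rose with FICZ in WT (0.53, adjusted p = 0.0353) and was higher in AHR KO than WT under DMSO (0.68, adjusted p = 0.0420) and FICZ (0.56, adjusted p = 0.0366). The DKK receptor Kremen1 rose with FICZ in WT (0.43, adjusted p = 0.00442) and in AHR KO (0.42, adjusted p = 0.0136). These rises of Notum and Kremen1 with FICZ were not kept without the trend with GC content and length. Of 13 Dishevelled and destruction complex genes 12 were tested. With FICZ in WT Btrc (0.51), Dvl3 (0.48) and Dvl1 (0.31) rose and Axin1, the scaffold of the complex that degrades beta-catenin, fell (-0.45, adjusted p = 0.00285). In AHR KO Dvl3 (0.50) and Dvl1 (0.39) rose and Axin1 fell (-0.31, adjusted p = 0.0339). Amer1 was higher in AHR KO than WT under DMSO (0.40) and FICZ (0.72), Axin1 was lower under DMSO (-0.36) and Btrc lower under FICZ (-0.42). The rise of Dvl1 in WT turned to -0.01 without the trend with GC content and length.

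Of 8 TCF/LEF factors and coactivators 5 were tested and 4 rose with FICZ in WT (15.1% of all genes did), namely Tcf7l2, the main TCF of the gut epithelium (0.78, adjusted p = 0.00107), Bcl9 (0.47), Bcl9l (0.41) and Pygo2 (0.29). Of these Tcf7l2 was the 1 still called without the trend with GC content and length. In AHR KO Bcl9l (0.43) and Pygo2 (0.31) rose. Tcf7l2 was lower in AHR KO than WT under DMSO (-0.57, adjusted p = 0.0202) and under FICZ (-1.32, adjusted p = 3.91e-05), and Bcl9 under FICZ (-0.80, adjusted p = 0.00544).

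Lgr5 and Rnf43 were set beside other Wnt target genes, of which 14 of 16 were tested. With FICZ in WT 3 of the 14 rose and 2 fell, with a median of 0.13, beside 15.1% of all genes that rose and 15.7% that fell. Those that fell were Sox9, a stem and progenitor cell factor (-0.91, adjusted p = 2.34e-04), and Myc, a driver of growth (-0.31, adjusted p = 0.00525). Those that rose were Notum (given above) and the ephrin receptors Ephb3 (0.37, adjusted p = 0.00394) and Ephb2 (0.21, adjusted p = 0.0281). None of these 3 rises was kept without the trend with GC content and length, whereas both falls were. Axin2, the negative feedback target most used to read Wnt activity, was at 2854 and 3141 normalised counts in WT DMSO and 3237 to 3489 in WT FICZ and was not called in any comparison. In AHR KO Sp5 (0.65, adjusted p = 0.00991) and Ephb3 (0.26, adjusted p = 0.0435) rose. Between the genotypes the largest differences by size among the called were Tnfrsf19 (1.55 under DMSO and 1.59 under FICZ) and, under FICZ, Sox9 (1.13), Sp5 (0.75) and Ccnd1 (0.68), all higher in AHR KO. Under DMSO Notum (given above) and Ccnd1 (0.60) were higher and Ephb2 was lower (-0.26).

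Of 14 crypt base stem cell markers 13 were tested, and with FICZ in WT 1 fell, 0 rose and the median was -0.06. The gene that fell was Lrig1, a brake on EGF receptor signalling that marks stem cells (-0.35, adjusted p = 6.79e-04), at 3300 and 3447 normalised counts in WT DMSO and 2612 to 2683 in WT FICZ. Ascl2, a transcription factor of Lgr5 stem cells, was at 195.7 and 300.4 in WT DMSO and 235.0 to 295.0 in WT FICZ, so that its groups overlapped. In AHR KO Cdca7 alone was called (-0.25, adjusted p = 0.0427), beside 19.7% of all genes called and 9.48% called lower. Between AHR KO and WT, 3 markers were higher and 2 lower under DMSO (9.05% of all genes were called), and 5 higher and 3 lower under FICZ (20% of all genes). Under DMSO these included, beside Tnfrsf19, Prom1 (0.47), Cdca7 (-0.38) and Slc12a2 (-0.34). Under FICZ the called differences that were largest in size were Tnfrsf19 (given above), Mex3a (0.73), Prom1 (0.64) and Slc12a2 (-0.50). The 1 call in 13 with FICZ in WT stands beside 30.8% of all genes. Mex3a (-0.48), Prom1 (-0.23) and Cdca7 (-0.17) had differences below 0 with unadjusted p of 0.0192, 0.0366 and 0.0342, and Rgmb (0.27) and Axin2 (0.15) had differences above 0 with unadjusted p of 0.0311 and 0.0235. None of these passed the adjustment.

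**Figure D5:**
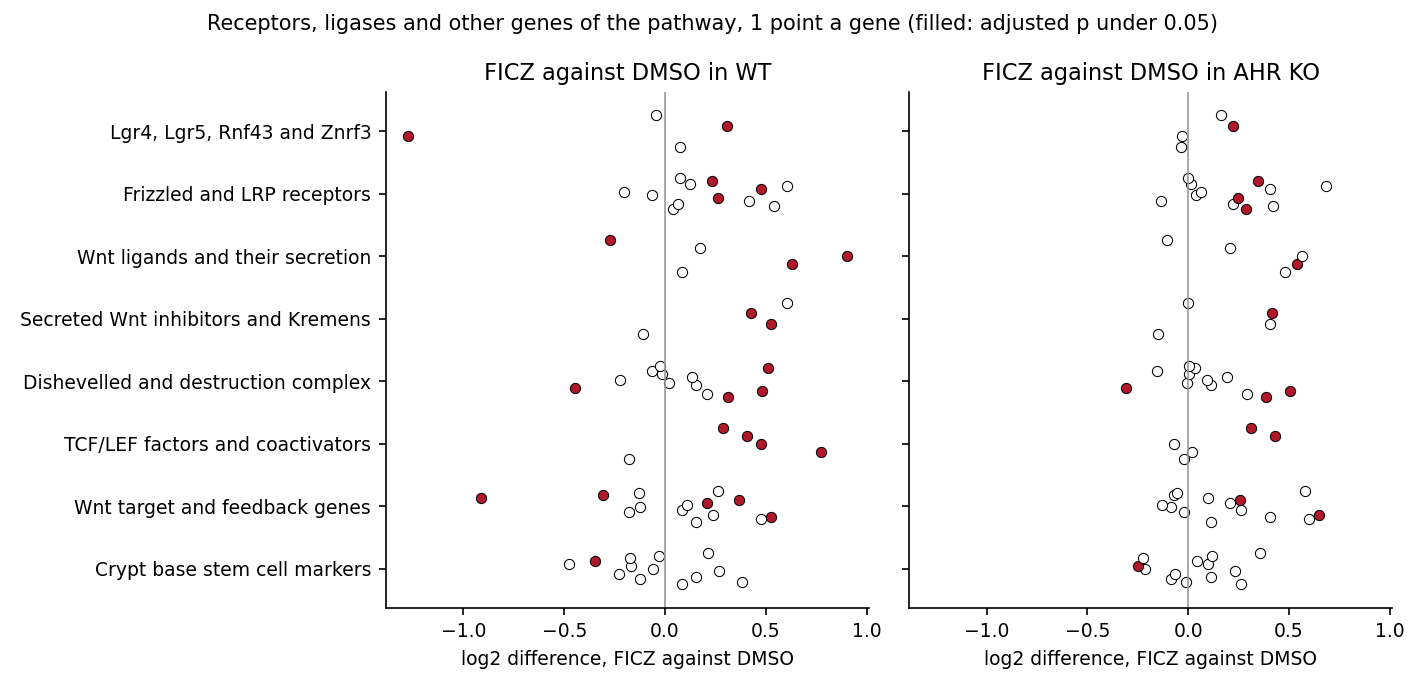
Log2 differences between FICZ and DMSO (horizontal axes) in WT (left) and AHR KO (right) for Lgr4, Lgr5, Rnf43 and Znrf3 (top row) and for 7 lists of pathway genes, with 1 point a gene and filled points for an adjusted p under 0.05. Lgr5 at -1.28 in WT is the lowest point, next to Sox9 at -0.91, and in AHR KO the lowest point is Axin1 at -0.31.

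The genes whose log2 values followed each of the tested 4 most closely over the 9 libraries were found among 10583 protein-coding genes with a mean of 50 or more. For Lgr5 they were Stc2, a secreted glycoprotein (Pearson r 0.983), Gcnt2, a glycosyltransferase (0.976), Lrig1 (0.970), the interferon gamma receptor Ifngr1 (0.969) and the sphingomyelin synthase Sgms1 (0.967). Stc2, like Lgr5, was lowest in WT FICZ, at 2928 to 3326 normalised counts against 4507 to 5325 in all other libraries. For Rnf43 they were Dpm2 (0.999), Daglb (0.995), Epg5 (0.993), Slc27a4 (0.991) and Ctdsp2 (0.990). Dpm2, a subunit of dolichol-phosphate mannose synthase, was at 595.0 to 664.7 in the FICZ libraries and 445.7 to 471.0 in the DMSO libraries.

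For Znrf3 the closest genes were Tchh (0.982), Csrp1 (0.968), Tuft1 (0.965), Stox2 (0.962) and the cell cycle kinase Cdk6 (0.954). Cdk6 was at 4909 to 6522 normalised counts in AHR KO and 4013 to 4363 in WT, so that it separated the genotypes as Znrf3 did. For Lgr4 they included Btn1a1 (0.959), Ndrg1 (0.937), the cyclin Ccni (0.929) and Ankzf1 (0.922). The points share 4 groups of libraries, so a high r marks a like pattern over groups and is a description of these 9 libraries. With Spearman rank correlation 4 of the 5 genes for Znrf3, 2 for Lgr4 and 0 for Lgr5 and Rnf43 were again among the closest 5, and without the trend with GC content and length 3 for Znrf3 and 0 for the other genes. Among the genes described here r was 0.657 between Lgr5 and Znrf3, -0.693 between Lgr5 and Rnf43, -0.763 between Lgr4 and Znrf3 and -0.098 between Rnf43 and Znrf3.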

How the data were processed

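The deposited values are normalised read counts with decimals (a signal at or above 0) for 48795 Ensembl genes and 9 libraries. The submitters' processing notes list RSEM 1.2.31, STAR 2.5.2a, DESeq2 1.16.1 and the build GRCm38, and the methods name summarizeOverlaps for stranded, ribosomal RNA-depleted libraries. Which step scaled the table is not given in the sources used here. Only 52.6 to 63.3% of low values lay within 0.05 of whole multiples of the smallest step, so no count model was used. Replicate numbers follow the sample descriptions, which match the columns and differ from the sample titles for some libraries. Symbols (99.3% of identifiers), lengths and GC content came from GENCODE M21.

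Values were analysed as log2(value + 1) for genes with a mean of 10 or more (12741). A model with 4 group means was fitted to all libraries with limma 3.58.1 (R 4.3.3, lmFit and eBayes with trend), tests were two-sided and p-values were Benjamini-Hochberg adjusted over all genes tested, with calls under 0.05. Promoters came from a RefSeq table, and Biopython 1.88 gave the reverse complements for the motif search. Named genes were the 5 members, the 5 closest in pattern to each tested member, and per list the called genes, or the 4 largest where more were called. Axin2, Ascl2, Ephb2 (with FICZ in WT), uncalled stem cell markers and the marker genes were named after their values were seen. One gene that the rule names for Lgr4 is not reported here. The members and lists were chosen with earlier results of these data known.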

Additional observations from a re-analysis of the deposited data

Results flagged for a closer look

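The FICZ difference of 3 genes named above differed between the genotypes by the interaction term of the limma fit. For Lgr5 the interaction was -1.24 on the log2 scale (adjusted p = 0.00784), with all 3 WT FICZ libraries below both WT DMSO libraries while the AHR KO FICZ libraries lay on either side of the AHR KO DMSO mean. For Sox9 it was -1.01 (adjusted p = 0.0113), with 1665 to 2186 normalised counts in WT FICZ, 3551 and 3696 in WT DMSO, 3877 and 3985 in AHR KO DMSO and 4149 and 4279 in AHR KO FICZ. For Lrig1 it was -0.39 (adjusted p = 0.0456). With 1 library left out the call of Lrig1 was lost in 8 of 9 fits (adjusted p of 0.0742 to 0.258), that of Sox9 in 4 of 9 (adjusted p of 0.0544 to 0.0870) and that of Lgr5 in the fit without AHR KO DMSO replicate 3 (adjusted p = 0.0611). No group had 4 or more libraries, so no test for a single outlying library was made within a group.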

How the results depend on the processing

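Of 420 values of Lgr4, Lgr5, Rnf43 and Znrf3 under the alternatives, 410 kept their side of the threshold, and those called in the report kept their direction. The calls of Lgr5 with FICZ in WT and between genotypes under FICZ held under each alternative run. Lost calls were those of Rnf43 with FICZ once the trend with GC content and length was taken out (0.121 in WT, 0.01 in AHR KO), the trend with GC content alone (0.126 and 0.025) and both trends with the replicate block as a fixed term (0.141 and 0.01), and some with 1 library left out: Rnf43 in AHR KO ranged from 0.21 to 0.24, the Lgr5 interaction from -1.41 to -1.08 and Znrf3 between genotypes under FICZ from 0.31 to 0.48. Uncalled values of Lgr4 and Lgr5 with FICZ in AHR KO kept their sign under 17 of 22 alternatives. Dvl1 turned with FICZ in WT (-0.013 without the trend with GC content and length, -0.014 with the block as well), as did Bcl9l (-0.007 with the block and without both trends).

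The count of genes called with FICZ fell from 3928 to 2313 in WT and from 2509 to 683 in AHR KO without the trend with GC content and length, to 2380 and 660 without that with GC content alone, and to 1720 and 543 with the replicate block as well. With 1 library left out the counts ranged from 1990 to 4133 for FICZ in WT, from 420 to 2961 for FICZ in AHR KO, from 23 to 78 for the interaction, from 389 to 1465 between genotypes under DMSO and from 1312 to 3084 under FICZ. Replicate numbers were shared between DMSO and FICZ. Deviations from the group mean in same-numbered libraries correlated at 0.042 and 0.05 for WT 2 and 3 and at 0.035 for AHR KO. In a group of 2 libraries the deviations mirror each other, so AHR KO gave 1 value for both its numbers. This low correlation does not show whether same-numbered libraries came from the same culture, which the labels do not say. The replicate block alone changed no call of the 4 genes. The causes of these shifts were not tested beyond what each alternative removes. Of 1638 values for 78 results of other named genes, 1374 kept their side of the threshold, 258 were weaker, 3 were stronger and 3 turned. Only 32 of the 78 results were the same under each alternative. Lgr6 was close to the detection limit and had no call in the fit with no filter on low values. At the depth of these libraries the R-spondins could not be compared.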
